A study of Mus musculus with 16 samples.

Results

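Haemoglobin and heme synthesis transcripts were followed through 16 mouse cerebral cortex libraries. The set holds 5 of the 55573 genes in the count table: the adult beta globins Hbb-bs and Hbb-bt, the adult alpha globins Hba-a1 and Hba-a2, and Alas2. They were taken as the rows whose Ensembl identifier carries one of those symbols. All 5 were found and all 5 passed the filter on low counts. They had been picked with their levels by group and the paired Harlequin contrast already known, so their levels and fold changes are given below as a description, without a test.

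The libraries form 4 groups of 4. Aifm1-KI mice carry a knock-in that removes arginine 200 of AIF, an oxidoreductase held in the space between the mitochondrial membranes and needed for building the respiratory chain, and Aifm1-WT mice are their wild-type littermates. Hq-mut mice carry Harlequin, another mutation of the same X-linked gene, and Hq-WT mice are their wild-type littermates. Every mouse was sampled at about postnatal day 180, without treatment. The labels give the strain of each sample as C57BL/6 but name the Harlequin stock B6CBACa Aw-J/A-Aifm1Hq/J. Whether the libraries come from different animals is not stated, so p-values and standard errors measure the spread between these libraries.

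Haemoglobin is a tetramer of alpha and beta globin chains, each holding a heme group, and it makes up most of the protein of red cells. Maturing red cells without a nucleus still carry globin mRNA, and the cortex is rich in small vessels, so that globin transcripts are regularly found in brain RNA. Globin mRNA has also been reported in neurons and glia. Heme is built in steps shared by mitochondria and cytosol. The first step joins glycine to succinyl-CoA, and it is catalysed by ALAS2 in red cell precursors and by ALAS1 in other tissues.

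Both globin families are pairs of near-identical genes, which limits what a count for any single one can mean. Hbb-bs (ENSMUSG00000052305) lies on GRCm38 chromosome 7, 103826534 to 103828096, and Hbb-bt (ENSMUSG00000073940) at 103812524 to 103813996, both on the minus strand and both protein-coding. Hba-a1 (ENSMUSG00000069919) lies on chromosome 11, 32283511 to 32284465, and Hba-a2 (ENSMUSG00000069917) at 32296489 to 32297298, both on the plus strand and protein-coding. In the GENCODE M21 transcripts, the coding sequences of Hba-a1 and Hba-a2 are each 426 bases long and differ at 1 base, and those of Hbb-bs and Hbb-bt are each 441 bases long and also differ at 1 base. The stretches around those differences are printed to show how little separates the copies for a read of 51 bases. The capital marks the base that differs, and the alpha stretch covers bases 361 to 401 of the coding sequence and the beta stretch bases 397 to 437.
Hba-a1: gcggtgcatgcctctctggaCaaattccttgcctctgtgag
Hba-a2: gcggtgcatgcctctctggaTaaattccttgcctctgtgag
Hbb-bs: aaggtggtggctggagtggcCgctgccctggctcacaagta
Hbb-bt: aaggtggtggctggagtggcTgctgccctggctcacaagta
Of all windows of 51 bases along a transcript, the length of the reads, 86.7% in Hba-a2, 67.3% in Hba-a1, 65.7% in Hbb-bs and 58.2% in Hbb-bt also occur in the partner gene. Reads from those windows cannot be placed on one copy by sequence alone, so the level of each globin and the ratio between partners are uncertain, and how the counting treated such reads is not given in the sources used here. Alas2 (ENSMUSG00000025270, protein-coding, chromosome X, 150547375 to 150570638, plus strand) shares 13.7% of its windows with the reverse strand of Apex2 and Mir3620. The strand setting of the counting is not given either, so reads from the overlap of Alas2 and Apex2 cannot be told apart.

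The 100 bases upstream of each start show that the globins share promoter letters that are not in the Alas2 window. They are taken from the RefSeq promoter table on GRCm38.p6 and are printed in the direction of transcription, with capitals marking, on either strand, the 4 motifs spelled out after them. The windows are chr7:103827929-103828028 on the minus strand for Hbb-bs, chr7:103813924-103814023 on the minus strand for Hbb-bt, chr11:32283572-32283671 on the plus strand for Hba-a1, chr11:32296392-32296491 on the plus strand for Hba-a2 and chrX:150547317-150547416 on the plus strand for Alas2. RefSeq starts differ from the GENCODE gene ends given above, so some windows reach into the GENCODE gene.
Hbb-bs: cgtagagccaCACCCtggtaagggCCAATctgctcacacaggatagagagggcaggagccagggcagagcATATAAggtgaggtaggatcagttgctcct
Hbb-bt: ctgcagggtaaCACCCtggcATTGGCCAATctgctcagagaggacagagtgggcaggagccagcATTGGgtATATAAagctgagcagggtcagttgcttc
Hba-a1: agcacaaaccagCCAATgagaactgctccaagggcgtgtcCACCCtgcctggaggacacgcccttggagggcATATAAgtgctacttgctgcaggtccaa
Hba-a2: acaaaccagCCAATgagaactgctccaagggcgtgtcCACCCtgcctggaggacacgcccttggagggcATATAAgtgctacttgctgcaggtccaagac
Alas2: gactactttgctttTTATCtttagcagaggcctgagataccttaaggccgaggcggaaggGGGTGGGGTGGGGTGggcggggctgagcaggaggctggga
CACCC, the core of sites bound by Kruppel-like factors, is in all 5 windows and in 27.2% of 32851 promoter windows of the same length. CCAAT is in the windows of the 4 globins and in 18.9% of all windows. ATATAA, which resembles the core promoter box bound by TBP, is again in those of the 4 globins and in 3.74% of all windows. GATAA, the core of sites bound by GATA factors, is in the Alas2 window alone among these genes and in 8.55% of all windows. The Hbb-bt window holds 3 CCAAT matches, of which a forward and a reverse one stand side by side, and the Alas2 window holds 3 CACCC matches, all on the reverse strand. The motifs were chosen after the sequences were seen, and a match says only that the letters are there.

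Read depth ran from 10671580 counts in Hq-WT 3 to 32551594 in Aifm1-KI 2, and levels are read counts brought to 1 library size (CPM) with TMM factors over all 16 libraries. Aifm1 itself was at 3.77, 2.22, 3.28 and 4.01 CPM in Hq-mut, against 23.1, 25.8, 23.5 and 23.4 CPM in Hq-WT, and the groups do not overlap. A deleted codon need not change the amount of RNA, so the gene's level checks nothing in the knock-in, where it was at 21.7 to 25.8 CPM in Aifm1-KI and 21.5 to 23.4 CPM in Aifm1-WT. Some libraries carry markers of other tissues. The 14 liver markers summed to 318 and 371 CPM in Aifm1-WT 1 and 2 and to at most 37.8 CPM elsewhere, the 10 striatal markers to 641, 591 and 856 CPM in Aifm1-KI 2, Aifm1-KI 4 and Hq-mut 3 against at most 367 CPM elsewhere, and the 8 choroid plexus markers to 2830 and 5490 CPM in Aifm1-KI 2 and Hq-WT 2 against at most 380 CPM elsewhere. Cortical excitatory neuron markers were present in every library, with sums of 1480 to 2790 CPM.

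The adult globins were present in all 16 libraries, and their level varied several-fold among libraries of one group. Their summed level was 29.8, 36.9, 49.7 and 62.9 CPM in the 4 Aifm1-KI libraries, in order of replicate number as throughout, against 71, 46.6, 50.1 and 63.6 CPM in Aifm1-WT. The Harlequin sums were 37.8, 85.6, 37.7 and 23.9 CPM in Hq-mut, against 54.2, 67.5, 81.8 and 37.3 CPM in Hq-WT. Hq-mut 2 was the highest library of all and Hq-mut 4 the lowest, so that the Hq-mut group spans the whole range of the series, and in both lines mutant and wild type overlap. In whole tissue, a smaller number of globin-bearing cells and less globin RNA per cell cannot be told apart.

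Markers of the red cell lineage other than the globins and Alas2 were scarce. Of 20 listed markers that were matched, 9 were at or under 3 counts in every library, among them Epb42, Rhag, Kel, Hemgn, Cldn13, Trim10, Gata1 and Nfe2. The membrane protein band 3 (Slc4a1) reached at most 0.328 CPM, in Aifm1-WT 3, and the erythroid transcription factor Klf1 at most 0.534 CPM, in Hq-WT 4. The 5 that passed the filter on low counts, Bpgm, Tspan33, Epor, Tal1 and Ermap, are not limited to red cells. Bpgm, which makes the haemoglobin ligand 2,3-bisphosphoglycerate, was highest in Hq-mut 2, at 69.2 CPM, against 40.2 to 54 CPM in the other 15 libraries. The whole marker list summed to 78.1 to 84.6 CPM in Aifm1-KI, 75.9 to 80.6 CPM in Aifm1-WT, 66.5 to 104 CPM in Hq-mut and 71.4 to 99.9 CPM in Hq-WT. Most of that sum was Bpgm and Tspan33, the latter at 17.9 to 37.1 CPM over all libraries, so it does not measure red cell content. The 17 markers of white cells and platelets summed to 4.83 to 13.4 CPM over all libraries, and the 10 of endothelium to 187 to 222 CPM in Aifm1-KI, 201 to 272 CPM in Aifm1-WT, 239 to 280 CPM in Hq-mut and 239 to 301 CPM in Hq-WT. In Aifm1-KI 8 of the 10 endothelial markers had a lower fitted level, with a median log2 fold change of -0.24, and the same held for 5 of 10 in Hq-mut, at a median of 0.01. Of the 8 markers of pericytes and smooth muscle, 7 had a lower fitted level in each mutant, with a median log2 fold change of -0.28 in Aifm1-KI and -0.18 in Hq-mut. Their sum was 169, 175, 159 and 174 CPM in Aifm1-KI, against 166, 196, 196 and 158 CPM in Aifm1-WT, and 119, 118, 138 and 156 CPM in Hq-mut, against 138, 125, 186 and 174 CPM in Hq-WT. Hq-mut 1 and Hq-mut 2 were the lowest of the series for these markers, while their endothelial sums were 239 and 272 CPM. The part that residual blood or vessel content had in the globin levels was not tested.

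The embryonic globin genes of the same loci were not detected. Hba-x, Hbb-bh1 and Hbb-bh2 had 0 counts in all 16 libraries, and Hbb-y, the embryonic epsilon-like gene, had at most 0.0584 CPM. A count of 0 allows a level of up to 0.0876 CPM in the deepest library and 0.277 CPM in the shallowest, taking 3 counts as the limit and counting error alone. The theta-like genes Hbq1a and Hbq1b reached 0.516 and 0.218 CPM. Nearly all reads counted in these loci were assigned to the 4 adult genes.

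**Figure D1:**
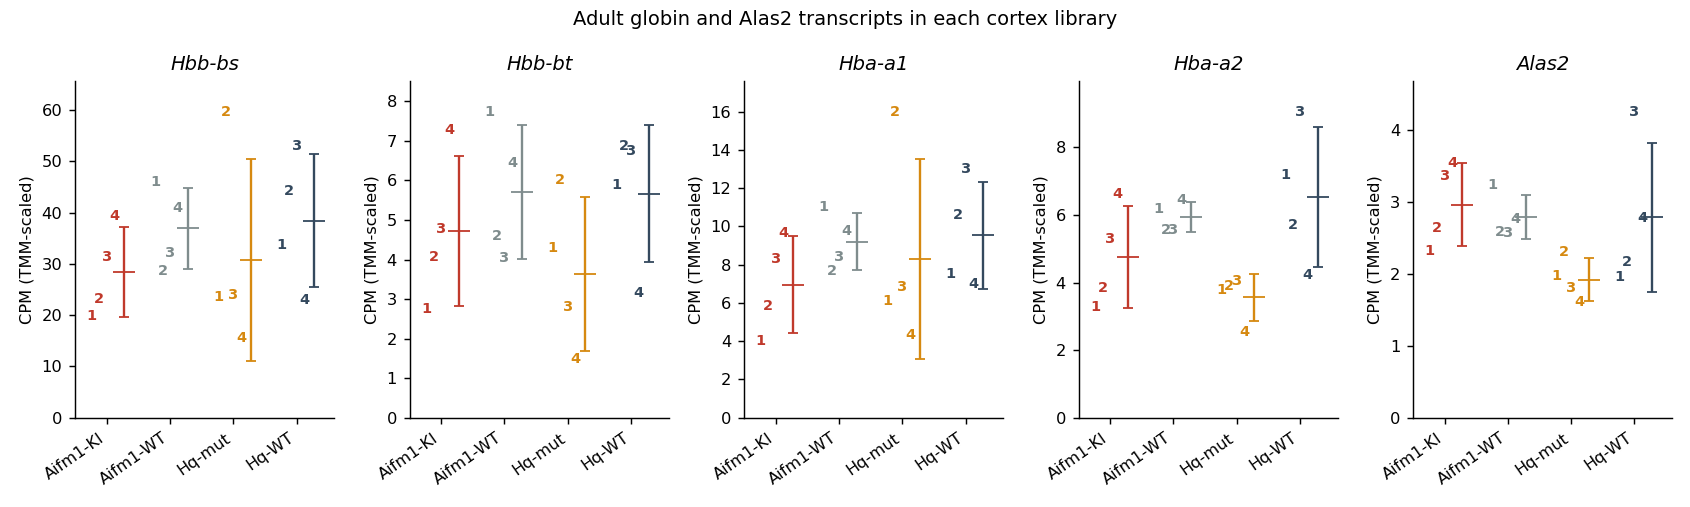
Level of each transcript (y axis, TMM-scaled CPM, from 0) in the 4 groups (x axis). Each digit is the replicate number of 1 library, and the bar is the group mean with its SD (n = 4). Hq-mut 2 is at the top for Hbb-bs (59.7 CPM) and Hba-a1 (16 CPM) but inside the other Hq-mut libraries for Hba-a2 (3.89 CPM).

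Hbb-bs, an adult beta globin gene, was the most abundant member in every library. It was at 19.8, 23.2, 31.3 and 39.3 CPM in Aifm1-KI, against 46, 28.7, 32.1 and 40.9 CPM in Aifm1-WT. In Hq-mut it was at 23.6, 59.7, 24 and 15.6 CPM, against 33.6, 44.3, 53 and 22.9 CPM in Hq-WT. In the Aifm1 line 2 of the 4 mutant libraries were under every wild type. In the Harlequin line 1 mutant library was under every wild type and 1 was over every wild type. The group means were 28.4 ± 8.74 and 36.9 ± 7.96 CPM in Aifm1-KI and Aifm1-WT, and 30.7 ± 19.7 and 38.5 ± 13 CPM in Hq-mut and Hq-WT (SD, n = 4 each). The fitted log2 fold change was -0.37 (SE 0.22) in the Aifm1 line and -0.35 (SE 0.39) in the Harlequin line. Without Hq-mut 2 the Harlequin value was -0.87. The Aifm1 value ranged from -0.576 without Aifm1-KI 4 to -0.236 without Aifm1-KI 1.

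Hbb-bt, the other adult beta globin gene, was below Hbb-bs in every library. It was at 2.75, 4.06, 4.78 and 7.28 CPM in Aifm1-KI, against 7.74, 4.6, 4.04 and 6.45 CPM in Aifm1-WT. In Hq-mut it was at 4.28, 6, 2.79 and 1.48 CPM, against 5.88, 6.88, 6.75 and 3.16 CPM in Hq-WT. Both lines overlap, and unlike Hbb-bs it was not over the wild types in Hq-mut 2. The log2 fold change was -0.26 (SE 0.30) in the Aifm1 line and -0.66 (SE 0.39) in the Harlequin line, with -0.99 in the Harlequin line without Hq-mut 2. The Aifm1 value ranged from -0.565 without Aifm1-KI 4 to -0.082 without Aifm1-KI 1.

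Hba-a1, the first of the adult alpha chain genes, was at 4.01, 5.84, 8.3 and 9.68 CPM in Aifm1-KI, against 11, 7.67, 8.41 and 9.74 CPM in Aifm1-WT. In Hq-mut it was at 6.12, 16, 6.84 and 4.31 CPM, against 7.51, 10.6, 13 and 6.99 CPM in Hq-WT. Hq-mut 2 again stood over every other library while the other 3 Hq-mut libraries were under all wild types of the line. The log2 fold change was -0.40 (SE 0.24) in the Aifm1 line and -0.22 (SE 0.38) in the Harlequin line. The Aifm1 value ranged from -0.616 without Aifm1-KI 4 to -0.218 without Aifm1-KI 1. The Harlequin value ranged from -0.73 without Hq-mut 2 to -0.005 without Hq-mut 4, so single libraries set its size.

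Hba-a2, the second adult alpha chain gene, was the one member whose Harlequin groups did not overlap. It was at 3.77, 3.89, 4.05 and 2.53 CPM in Hq-mut, against 7.18, 5.7, 9.06 and 4.22 CPM in Hq-WT. Its fitted change was -0.89 on the log2 scale (SE 0.26), or 0.539-fold. It ranged from -1.055 to -0.692 over 12 other settings, which refit the libraries the gene was picked on and add no independent support. DESeq2 and the fit without a filter were not among them. Only 13.3% of the Hba-a2 windows were found in no other gene, and the summed alpha globin level overlaps between the Harlequin groups. Groups without overlap occurred in 1.58% of the 17969 genes tested in that line, and in 0.723% with the mutant lower. In the Aifm1 line it was at 3.27, 3.83, 5.28 and 6.63 CPM in Aifm1-KI, against 6.18, 5.57, 5.57 and 6.45 CPM in Aifm1-WT. There 3 mutant libraries were under and 1 was over all wild types, and the log2 fold change was -0.32 (SE 0.20). That value ranged from -0.535 without Aifm1-KI 4 to -0.183 without Aifm1-KI 1.

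Alas2, the erythroid form of the first enzyme of heme synthesis, had a fitted change near 0 in the Aifm1 line, where those of the 4 globins were below 0. It was at 2.32, 2.63, 3.35 and 3.53 CPM in Aifm1-KI, against 3.23, 2.58, 2.57 and 2.76 CPM in Aifm1-WT, with a log2 fold change of 0.09 (SE 0.17). Among the 4 Aifm1-KI libraries its levels stood in the same order as the globin sums. Without Aifm1-KI 4 that value was -0.015, so its direction rests on 1 library. In Hq-mut it was at 1.97, 2.3, 1.8 and 1.6 CPM, against 1.96, 2.16, 4.25 and 2.77 CPM in Hq-WT, with a log2 fold change of -0.54 (SE 0.28). Without Hq-WT 3, its highest library, the Harlequin value was -0.28. These levels rest on 36 to 90 counts per library. Apex2, a DNA repair gene on the opposite strand with which Alas2 shares sequence, was at 5.58 to 10.8 CPM.

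The Harlequin libraries with the same replicate number deviated together from their group means over all genes, with correlations of 0.497, 0.571, 0.44 and 0.49 for the 4 pairs, so the numbers were treated as pairs. Within pairs the 4 globins summed to 0.697, 1.27, 0.46 and 0.642 times the wild-type level in Hq-mut, with pair 2 the exception to a lower mutant. Hba-a2 and Hbb-bt were lower in Hq-mut in all 4 pairs. Hba-a2 had ratios of 0.525, 0.683, 0.447 and 0.6, and Hbb-bt had ratios of 0.729, 0.872, 0.413 and 0.468. Hbb-bs and Hba-a1 were lower in Hq-mut in 3 pairs and 1.35 and 1.5 times higher in pair 2. Alas2 was nearly level in pairs 1 and 2, at ratios of 1.01 and 1.07, and lower in pairs 3 and 4, at 0.423 and 0.58. A fit with the replicate number as a block gave log2 fold changes of -0.45 (SE 0.21) for Hbb-bs, -0.73 (SE 0.21) for Hbb-bt, -0.33 (SE 0.23) for Hba-a1, -0.87 (SE 0.15) for Hba-a2 and -0.50 (SE 0.26) for Alas2.

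**Figure D2:**
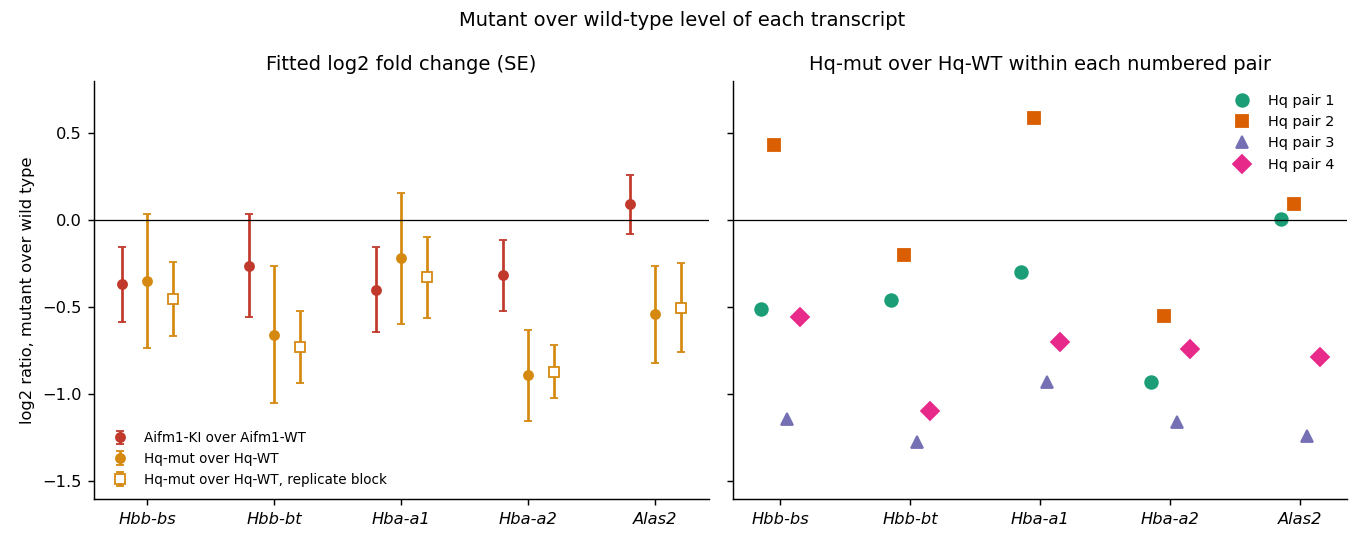
Mutant over wild-type level of the 5 transcripts (x axis) as log2 ratios (y axis). Left, fitted log2 fold changes with their SE in the Aifm1 line and in the Harlequin line without (filled) and with (open) the replicate block; right, the ratio of CPM in each numbered Harlequin pair. Pair 2 is above 0 for Hbb-bs, Hba-a1 and Alas2, and every pair is below 0 for Hbb-bt and Hba-a2.

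Where the 2 alpha globin genes were set against each other, Hq-mut 2 stood apart. Hba-a1 took 80.4% of the alpha globin counts in Hq-mut 2 (402 of 500, exact binomial 95% interval 76.6 to 83.8%), against 51.1 to 65.1% in the other 15 libraries. Its ratio of Hba-a1 to Hba-a2 was 4.1, against 1.05 to 1.86 elsewhere. Hba-a1 was the highest of the series in this library, at 16 CPM, while Hba-a2, at 3.89 CPM, was among the 5 lowest.

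Hbb-bt took 8.64 to 15.6% of the beta globin counts. Its share was 15.4, 9.13, 10.4 and 8.64% in Hq-mut, against 14.9, 13.4, 11.3 and 12.1% in Hq-WT. In Hq-mut 2, 3 and 4 the share was under that of every Hq-WT library, and in Hq-mut 1 it was over every one. In the Aifm1 line it was 12.2, 14.9, 13.2 and 15.6% in Aifm1-KI, against 14.4, 13.8, 11.2 and 13.6% in Aifm1-WT, with overlap. The intervals cover counting error only, and the reads that fit both copies add an uncertainty they do not hold.

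Summed over both copies, beta and alpha counts kept a narrow ratio. It was 2.32 to 3.31 over the 16 libraries, with group means of 2.86 in Aifm1-KI, 2.79 in Aifm1-WT, 2.77 in Hq-mut and 2.71 in Hq-WT. The summed globin level varied 3.58-fold within Hq-mut alone. The sums over both copies are less exposed to misplaced reads than single copies are, and neither sum separated mutant from wild type in either line.

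**Figure D3:**
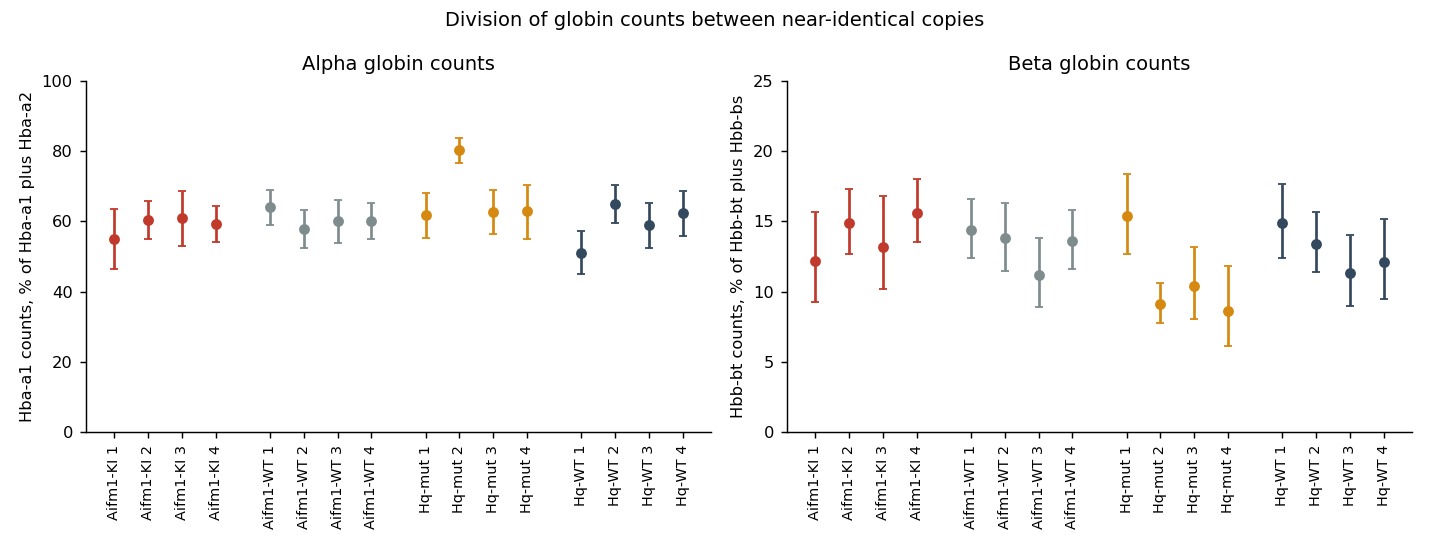
Share of alpha globin counts assigned to Hba-a1 (left, y axis in %) and of beta globin counts assigned to Hbb-bt (right, y axis in %) in each library (x axis), with exact binomial 95% intervals. Hq-mut 2 is at 80.4% on the left, above all other libraries.

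The ratio of the summed globins to Alas2 separated the Aifm1 groups by a narrow gap. It was 12.8, 14.1, 14.8 and 17.8 in Aifm1-KI, against 22, 18, 19.5 and 23 in Aifm1-WT. Across the Harlequin groups it was 19.2, 37.1, 20.9 and 14.9 in Hq-mut, against 27.7, 31.3, 19.2 and 13.5 in Hq-WT, with overlap. The ratio was built from members chosen on their levels and was looked at after those levels were known, so it carries no test. Its nearest values in the Aifm1 line, 17.8 in Aifm1-KI 4 and 18 in Aifm1-WT 2, rest on 81 and 64 Alas2 counts. Counting error alone is wider than the gap between them.

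Levels of different genes were compared per kilobase of exon. The median over 16 libraries was 41.3 CPM per kb for Hbb-bs, 9.83 for Hba-a1, 8.13 for Hba-a2, 6.67 for Hbb-bt and 1.07 for Alas2. Hbb-bs (20.3 to 77.7 CPM per kb) did not overlap Hba-a1 (4.94 to 19.7 CPM per kb), while Hba-a1, Hba-a2 (3.8 to 13.6 CPM per kb) and Hbb-bt (2.1 to 11 CPM per kb) overlap their neighbours in that order. Windows of 51 bases found in no other gene made up 34.3% of Hbb-bs, 41.8% of Hbb-bt, 32.7% of Hba-a1 and 13.3% of Hba-a2. Exon length does not correct for that. The order and overlap among the globins can therefore depend on how shared reads were counted, which is not given. Alas2, at 0.668 to 1.77 CPM per kb, was under every globin. Alas1, the form used outside red cells, had a median of 7.6 CPM per kb.

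The remaining genes of heme biology, 77 matched genes in 7 lists, were compared with edgeR's quasi-likelihood test and Benjamini-Hochberg adjustment over all genes. No list gene passed an adjusted p of 0.05 in either line. In Aifm1-KI against Aifm1-WT 0% of 18383 genes were called, with 2094 (11.4%) at an unadjusted p under 0.05, and without Aifm1-KI 3 the call was made for 46 genes, none of them on the lists. Of the 54 list genes tested there, 21 had a higher and 33 a lower fitted level in Aifm1-KI, with 4 and 8 at an unadjusted p under 0.05 and a median log2 fold change of -0.06 against 0.01 over all genes. DESeq2 called 161 of 22214 genes with an adjusted p in this comparison (0.725%, and 0.401% lower), of which 3 of 60 list genes: Hpx, Trf and Hamp, all lower in Aifm1-KI. Hamp, the liver hormone hepcidin, was at 1.33 and 1.13 CPM in Aifm1-WT 1 and 2, the libraries with liver markers, and at most 0.178 CPM elsewhere. In Hq-mut against Hq-WT 0.0167% of 17969 genes were called, 0.0111% higher and 0.00557% lower, with 385 (2.14%) at an unadjusted p under 0.05. Of the 53 list genes tested there, 28 had a higher and 25 a lower fitted level in Hq-mut, with 1 and 3 at an unadjusted p under 0.05 and a median of 0.02 against 0.01 over all genes. With the replicate block 10 of the 53 list genes were at an unadjusted p under 0.05, against 1433 of the 17969 genes, and no list gene was called. DESeq2 called 3 of 35959 genes (0.00834%) and no list gene. The difference of the mutants' effects, Harlequin line minus Aifm1 line, was called by edgeR for 0.0105% of 19129 genes, 0.00523% in each direction. No list gene was among them. In that fit 2 of 54 list genes were higher and 5 lower at an unadjusted p under 0.05, against 972 (5.08%) of all genes. DESeq2 called the difference for 0.0128% of 38940 genes and for no list gene.

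The other enzymes of the heme pathway described here were expressed in cortex, and none was called. Alas1, which starts the pathway outside red cells, was at 42.7, 39.6, 43.7 and 42.2 CPM in Aifm1-KI, against 45.7, 47.3, 44.3 and 49.7 CPM in Aifm1-WT, without overlap. Urod, which decarboxylates uroporphyrinogen, was at 25.4, 22.1, 26 and 25 CPM in Aifm1-KI, against 28.4, 28.6, 27 and 31.1 CPM in Aifm1-WT, also without overlap. The log2 fold changes were small, -0.14 (SE 0.06, adjusted p = 0.42 by edgeR) for Alas1 and -0.22 (SE 0.07, adjusted p = 0.368 by edgeR) for Urod. Neither gene separated the Harlequin groups, and Urod was highest in both libraries numbered 2, at 43.3 CPM in Hq-mut 2 and 38.4 CPM in Hq-WT 2.

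Fech, which inserts iron into protoporphyrin in the last step, was at 53.6 to 59.7 CPM in Aifm1-KI, 55.4 to 59 CPM in Aifm1-WT, 54 to 63.6 CPM in Hq-mut and 55.6 to 60.9 CPM in Hq-WT, the narrowest of the pathway. Alad, which forms the pyrrole ring, was level in the Aifm1 line, at 12.9 to 14.2 CPM in Aifm1-KI and 13.7 to 14.6 CPM in Aifm1-WT. In the Harlequin line it was at 26.7, 39.2, 12.6 and 12.1 CPM in Hq-mut, against 25.4, 18.3, 13.7 and 23.1 CPM in Hq-WT, a spread within each genotype larger than the difference between them. Ppox, the next-to-last enzyme, had the smallest p of the list in the Harlequin line, at a log2 fold change of -0.32 (SE 0.19, adjusted p = 1 by edgeR). With the replicate block its value was -0.30 (unadjusted p = 0.044, adjusted p = 0.623 by edgeR). Uros and Cpox were within 16.1 to 25.1 and 36.5 to 51 CPM over all libraries.

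Among the 9 transporters and support genes of the pathway, Slc25a38, the mitochondrial glycine carrier, had the smallest p in the Aifm1 line. It was at 15.6, 14.5, 15.3 and 14.6 CPM in Aifm1-KI, against 16.5, 18.2, 18 and 18.2 CPM in Aifm1-WT, without overlap, with a log2 fold change of -0.23 (SE 0.07, adjusted p = 0.368 by edgeR). Abcb6, a porphyrin transporter picked out after its values were seen, was at 2.43, 2.86, 2.1 and 2.75 CPM in Aifm1-KI, against 1.43, 1.74, 2.02 and 2.05 CPM in Aifm1-WT, again without overlap, at an adjusted p of 0.368 by edgeR. Abcb10, a mitochondrial transporter needed for heme synthesis in red cell precursors, had the smallest p of the list in the Harlequin line without the replicate block. It was at 24, 24.3, 20.8 and 21.3 CPM in Hq-mut, against 18.3, 15.7, 18.8 and 19.2 CPM in Hq-WT, without overlap, with a log2 fold change of 0.30 (SE 0.12, adjusted p = 1 by edgeR). With the block the smallest p was that of Slc25a37, the iron importer mitoferrin 1, at a log2 fold change of -0.28 (unadjusted p = 0.00292, adjusted p = 0.523 by edgeR), against an unadjusted p of 0.02 for Abcb10. Slc25a37, named after its values were seen, was at 38.5, 36.2, 46.3 and 46.1 CPM in Hq-mut, against 45.9, 43.6, 58.1 and 52.4 CPM in Hq-WT, with overlap but lower in Hq-mut in each pair. Abcb10 was level in the Aifm1 line, at 18.9 to 20.2 CPM in Aifm1-KI and 18.4 to 19.8 CPM in Aifm1-WT, and the difference between lines had an adjusted p of 0.946 by edgeR.

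Over all 7 lists, groups without overlap were found for 5 of 54 genes in the Aifm1 line, Abcb6 above and Alas1, Urod, Slc25a38 and Hpx below, which is 9.26% against 4.87% of all genes tested, where 2.03% had the mutant higher and 2.83% lower. In the Harlequin line it was Abcb10 alone, 1.89% of 53 genes against 1.58% of all, where 0.857% had the mutant higher.

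**Figure D4:**
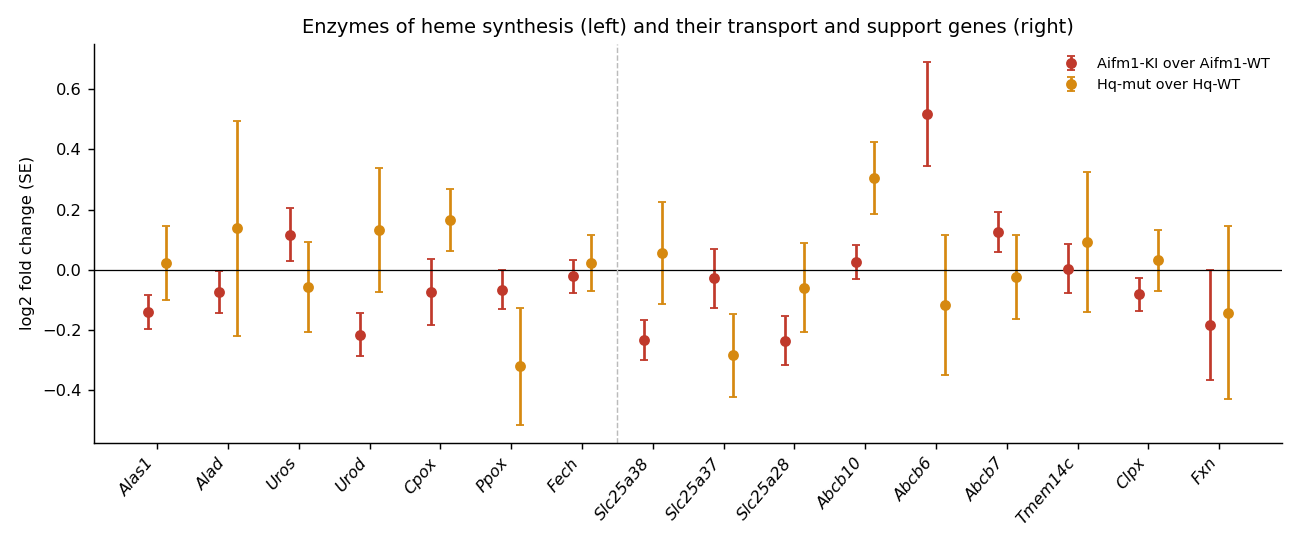
Log2 fold change with its SE (y axis) of enzymes of heme synthesis left of the dashed line and the 9 transport and support genes right of it (x axis), in Aifm1-KI over Aifm1-WT (red) and Hq-mut over Hq-WT (orange). Abcb6 is highest in the Aifm1 line and Abcb10 in the Harlequin line, and no gene passed the adjusted threshold.

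Hpx, Hp and Trf, which encode carriers of heme, haemoglobin and iron in plasma, had the largest fitted decreases of the lists in the Aifm1 line, beside markers of other tissues. Other scavenging genes of the lists were near 0, with a log2 fold change of -0.087 for Cd163, the receptor for haptoglobin bound to haemoglobin, and -0.022 for Lrp1, a receptor for haemopexin bound to heme. Hpx, which encodes the heme-binding plasma protein haemopexin, was at 0.792, 0.876, 0.335 and 0.48 CPM in Aifm1-KI, against 11.7, 14, 1.31 and 1.07 CPM in Aifm1-WT. The fitted log2 fold change was -3.40 (SE 0.87, adjusted p = 0.368 by edgeR), and -0.85 without Aifm1-WT 1 and 2. Those 2 libraries are the ones with liver markers: all 12 liver markers tested were lower in Aifm1-KI at an unadjusted p under 0.05, with a median log2 fold change of -3.82, and the list sum was 5.32 to 17.1 CPM in Aifm1-KI and 26.4 to 371 CPM in Aifm1-WT. Albumin (Alb), the highest liver marker, was at 155 and 171 CPM in Aifm1-WT 1 and 2 and at most 18.3 CPM elsewhere, and none of the 14 markers was at 0 in either. Hp, the haemoglobin scavenger haptoglobin, was picked out after its values were seen and had the same pattern, with 7.27 and 8.27 CPM in Aifm1-WT 1 and 2 and at most 0.922 CPM elsewhere. Hpx in the Harlequin line was low, at 0.171, 0.636, 0.18 and 0.295 CPM in Hq-mut, against 0.598, 0.822, 0.555 and 0.777 CPM in Hq-WT. In pair 3 these levels were near the limits of 0.135 CPM in Hq-mut 3 and 0.277 CPM in Hq-WT 3 set by 3 counts. Hpx was lower in Hq-mut in each pair, with overlap of the groups. Its log2 fold change there was -1.11 (SE 0.425), and -1.14 with the replicate block (unadjusted p = 0.011, adjusted p = 0.553 by edgeR). The part of liver RNA in these values was not tested.

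Trf, which encodes transferrin, the iron carrier made in brain by oligodendrocytes and choroid plexus, was at 15.9, 9.17, 12.2 and 10.3 CPM in Aifm1-KI, against 26.5, 23.2, 15.3 and 20.2 CPM in Aifm1-WT. Only Aifm1-KI 1 overlaps the wild types, and the log2 fold change was -0.84 (SE 0.20, adjusted p = 0.368 by edgeR, 0.0231 by DESeq2). It was -0.58 without Aifm1-WT 1 and 2. All 8 oligodendrocyte markers had a lower fitted level in Aifm1-KI, with a median log2 fold change of -0.41. Their sums were 1880 to 4210 CPM in Aifm1-KI and 3550 to 4840 CPM in Aifm1-WT. For each of the 8, Aifm1-KI 2 and 4 were under every wild type, while Aifm1-KI 1 and 3 were not. Trf was under every wild type in Aifm1-KI 2, 3 and 4. In the Harlequin line Trf was at 5.05 to 17.2 CPM in Hq-mut and 6.8 to 17.7 CPM in Hq-WT. The part of cell composition in these values was not tested.

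Ngb, the neuronal globin, had the smallest p among the globins outside the haemoglobin loci, and its fitted direction differed between the lines. It was at 5.97, 14.1, 3.6 and 10.1 CPM in Aifm1-KI, against 5.42, 5.93, 5.08 and 4.05 CPM in Aifm1-WT, with a log2 fold change of 0.77 (SE 0.35, adjusted p = 0.438 by edgeR). The 2 high libraries are the ones with striatal and, for Aifm1-KI 2, choroid plexus markers, and without Aifm1-KI 2 and 4 the value was -0.05. In Hq-mut it was at 2.1, 4.49, 1.71 and 1.94 CPM, against 6.15, 10.2, 2.68 and 2.09 CPM in Hq-WT, with a log2 fold change of -1.07 (SE 0.49, adjusted p = 1 by edgeR). Ngb was lower in Hq-mut in each pair, and with the replicate block the value was -0.96 (unadjusted p = 0.00292, adjusted p = 0.523 by edgeR). The difference between the lines was -1.83 (SE 0.65, adjusted p = 0.946 by edgeR). The striatal list summed to 856 CPM in Hq-mut 3, where Ngb was lowest, and its part in the Ngb level was not tested. Cygb, the globin of fibroblast-like cells and some neurons, was at 35.2 to 59.3 CPM over all libraries, and muscle myoglobin (Mb) at up to 0.555 CPM.

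**Figure D5:**
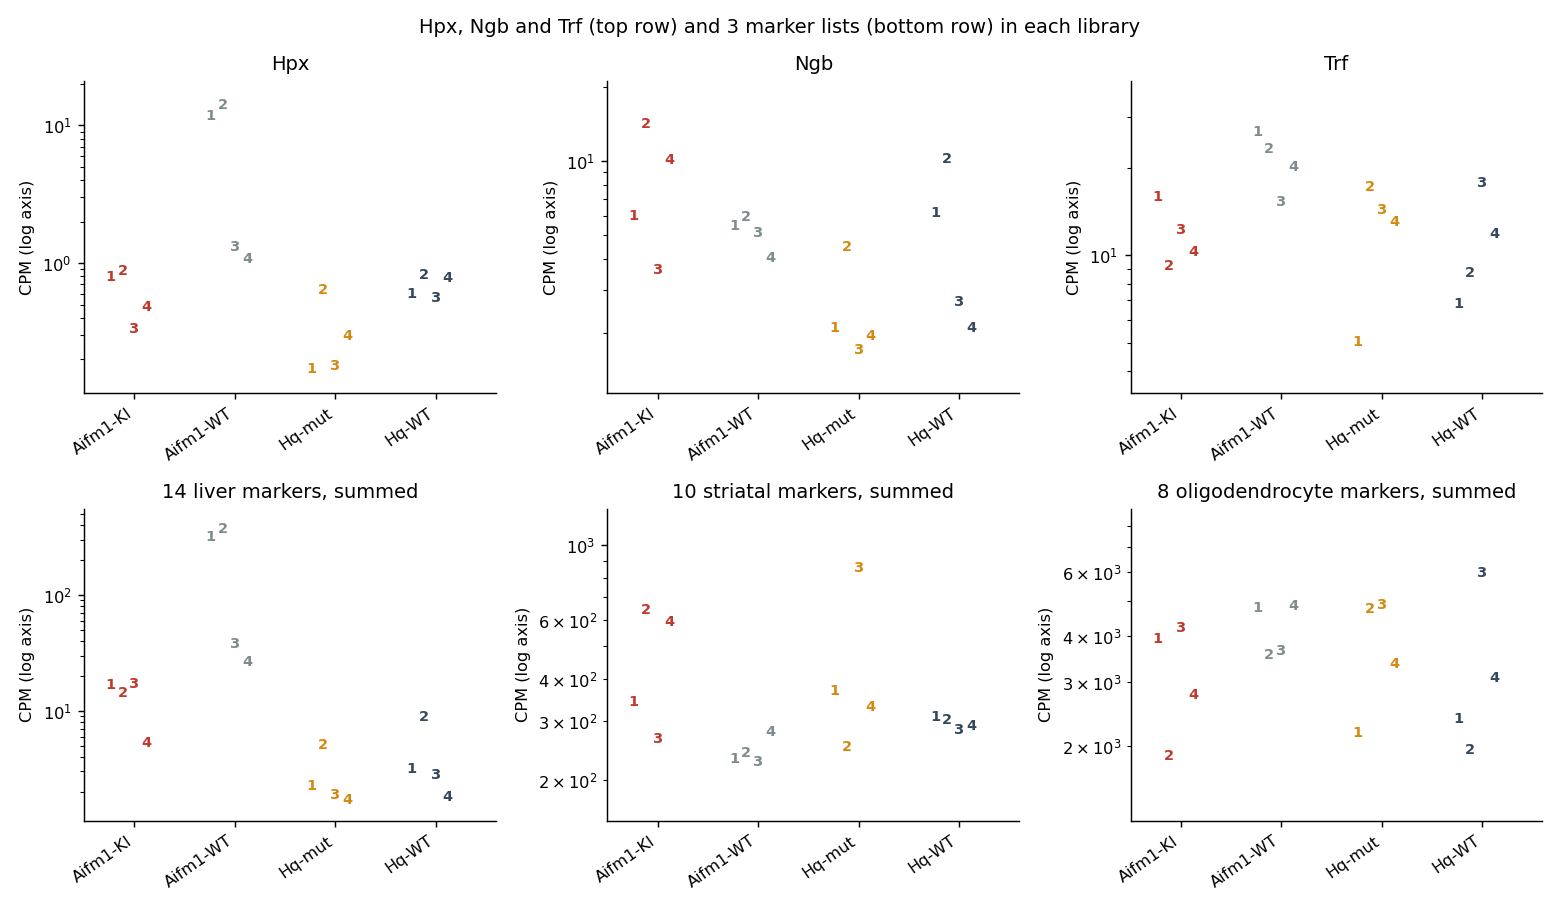
Levels of Hpx, Ngb and Trf (top row) and summed levels of liver, striatal and oligodendrocyte markers (bottom row) in each group (x axis), in CPM on log axes (y axis); each digit is the replicate number of 1 library. Aifm1-WT 1 and 2 are high for Hpx and for liver markers, and Aifm1-KI 2 and 4 for Ngb and for striatal markers.

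Of the red cell marker list, Tal1, a transcription factor of blood and endothelial precursors that is also made in some brain neurons, had the smallest p in the Aifm1 line. It was at 2.01, 3.27, 1.42 and 2.4 CPM in Aifm1-KI, against 1.28, 1.74, 1.15 and 1.38 CPM in Aifm1-WT, with a log2 fold change of 0.76 (SE 0.25, adjusted p = 0.368 by edgeR) and 0.34 without Aifm1-KI 2 and 4. Ermap, an erythroid membrane-associated protein, had the smallest p in the Harlequin line. It was at 0.342, 0.318, 0.36 and 0.802 CPM in Hq-mut, against 1.03, 0.77, 0.462 and 1.17 CPM in Hq-WT, with a log2 fold change of -0.97 (SE 0.40, adjusted p = 1 by edgeR). Ermap was lower in Hq-mut in each pair, and with the replicate block the value was -0.965 (unadjusted p = 0.0129, adjusted p = 0.571 by edgeR). In pair 3 its levels, 0.36 and 0.462 CPM, were near the limits of 0.135 and 0.277 CPM set by 3 counts, so that pair rests on few reads. The difference between lines for Ermap was -1.44 (SE 0.46, adjusted p = 0.944 by edgeR). Flvcr2, a heme transporter family member of brain vessels, had the smallest p of the heme breakdown, export and sensing list in the Harlequin line, at a log2 fold change of -0.72 (SE 0.25, adjusted p = 1 by edgeR). With the replicate block its value was -0.705 (unadjusted p = 0.0101, adjusted p = 0.547 by edgeR).

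Of the 10 genes whose levels were most like those of the globins over the 16 libraries, Ftl1 alone was on one of the 7 lists. Likeness was measured as Pearson's r of log2 CPM with the mean of the 4 adult globins, over 16022 genes. Kirrel2, a cell adhesion protein, was first at 0.866, followed by Ftl1, the ferritin light chain, at 0.856, Gps2, a nuclear corepressor subunit, at 0.843, and Sec14l2, a lipid-binding protein, at 0.818. Mettl11b, 2310010J17Rik, Slc15a2, Hmgn1 and Atn1 were also among the 10, at 0.816 to 0.766. These values are a description: the libraries share depth and composition, all 16022 genes were ranked, and r was 0.8 or more for 6 genes beside the members. Alas2 itself was at 0.628, in place 139.

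Kirrel2 was at 6.87, 9.61, 8.8 and 10.7 CPM in Aifm1-KI, against 10.9, 9.85, 9.56 and 9.88 CPM in Aifm1-WT. In Hq-mut it was at 6.93, 9.61, 5.94 and 5.91 CPM, against 10.4, 10.4, 12 and 8.89 CPM in Hq-WT. As with the summed globins, Hq-mut 2 was the highest of the 4 Hq-mut libraries. Ftl1 was at 0.464 to 2.34 CPM over all libraries, highest in Hq-mut 2 and lowest in Hq-mut 4 like Hbb-bs, but it has many near-identical pseudogenes, so that its counts are uncertain. Fth1, the ferritin heavy chain, was picked out after its values were seen and was at 843, 1930, 955 and 872 CPM in Hq-mut, against 877, 1030, 1060 and 1020 CPM in Hq-WT, again with Hq-mut 2 apart.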

How the data were processed

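The authors deposited 1 table of whole-number read counts per Ensembl gene in 16 libraries, not normalized. Per the series' design text, reads of 51 bases were trimmed, mapped to mm10 with STAR and counted with htseq-count, and edgeR was used. The submitters' processing notes give STAR 2.6, SAMtools and HTSeq. The annotation release, strand setting and handling of reads that fit several genes are not stated in the sources used here. Samples were grouped by genotype as the labels give it.

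Of 55573 identifiers, 55480 were paired with a symbol in GENCODE M21, and 188 of 189 listed genes were found. Levels are CPM with TMM factors over all 16 libraries. Each line was fitted on its own 8 libraries with edgeR 4.0.16 in R 4.3.3 (TMM, default low-count filter by group, quasi-likelihood F-test, Benjamini-Hochberg adjusted p under 0.05), and the difference of effects over all 16. SEs were obtained as log2 fold change over the root of F. The fits recovered most of the larger planted changes in simulated counts with the same spread for every gene, without pairs or RNA of other tissues. Changes as small as most given here were not planted, so the simulation does not cover them. Alternatives were RLE size factors, no filter, DESeq2 1.42.0, the replicate block, libraries left out singly and in the pairs whose markers stood apart. Members were not refitted without the filter or with DESeq2. Within-group pairs of libraries differed by a chi-square of 3.23 to 85.1 per gene, so none was counted as a copy.

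Total counts of 10671580 to 32551594 set a limit of 0.0876 to 0.277 CPM for a count of 0, taken as 3 counts. Reads carry no molecular identifiers, so limits and intervals cover counting error only. Same-numbered Harlequin libraries correlated at 0.44 to 0.571 in their deviations from the group means, over 0.1 in all 4 pairs, so the numbers pair them.

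The members and the gene lists were chosen with earlier results of these data known. Genes named are the members, Aifm1, up to 4 called genes of each pathway and red cell list or its lowest-p gene if it had no call, genes of lists of 8 or fewer, the highest gene of a marker list, the 10 genes most like the globins with a mean log2 CPM of at least 0 (prior count 2), and others marked as picked after their values were seen. Members carry no test. Protein sequences were not used here. The values of some single genes are not reported here; counts and sums over lists include them.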

Additional observations from a re-analysis of the deposited data

Results flagged for a closer look

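In 52 groups of 4 libraries examined, over 13 genes that are not members, 4 held a library far from the other 3 by Dixon's test, and chance flags about 1 group in 20. Urod was at 43.3 CPM in Hq-mut 2, against 25.4 to 28.1 CPM in the other 3 Hq-mut libraries. Ngb was at 4.49 CPM in Hq-mut 2, against 1.71 to 2.1 CPM in the other 3. Ermap was at 0.802 CPM in Hq-mut 4, against 0.318 to 0.36 CPM in the other 3. Slc25a38 was at 16.5 CPM in Aifm1-WT 1, against 18 to 18.2 CPM in the other 3 Aifm1-WT libraries. Hq-mut 2 holds 2 of the 4, and the cause was not tested.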

How the results depend on the processing

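No heme pathway or red cell list gene was called by edgeR under any setting, and DESeq2 called 3 in Aifm1-KI against Aifm1-WT. Over all genes DESeq2 called 161 in that comparison and 5 for the difference of effects. Leaving out single libraries gave 0 to 46 calls in the Aifm1 line, with 46 without Aifm1-KI 3 (43 higher, 3 lower), 1 to 2 in the Harlequin line and 1 to 2 for the difference, and 0 list genes throughout. Without Hq-mut 2 and Hq-WT 2 the Harlequin line had 1 call, and 4 with the replicate block added, a setting chosen after seeing the data. The difference of effects had 1 call without Hq-mut 2 and Hq-WT 2, 1 without Aifm1-WT 1 and 2, and 1 without Aifm1-KI 2 and 4. Ngb in the Aifm1 line turned to -0.052 without Aifm1-KI 2 and 4. Alas2 in the same line turned to -0.015 without Aifm1-KI 4. No other member's fold change changed sign under the 11 or 12 settings run in each line. The causes were not tested.

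With the replicate block the calls were 0, 3 and 2 in the Aifm1 line, the Harlequin line and the difference of effects, as without it, and no list gene was called. At an unadjusted p under 0.05 the Harlequin line had 1433 genes with the block and 385 without it. In the Aifm1 line same-numbered libraries correlated at -0.069 to 0.127 and matched best with their own number in 1 of 4, so those numbers were not taken as pairs. Globin counts of 35 to 1503 per library, split between near-identical copies, limit single-copy values.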

Other observations

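Microglial markers summed to 351 CPM in Hq-mut 2, the highest of the series, against 242 to 285 CPM in the other 3 Hq-mut libraries and 274 to 310 CPM in Hq-WT.

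Heme oxygenase 1 (Hmox1), which opens the heme ring, had the smallest p of the heme breakdown, export and sensing list for the difference between lines without the replicate block. The difference was 0.62 on the log2 scale (SE 0.27, adjusted p = 0.946 by edgeR). With the block the smallest unadjusted p by edgeR was that of Hpx, at 0.0132, against 0.0374 for Hmox1. Hmox1 was at 3.68, 4.89, 5.35 and 3.12 CPM in Hq-mut, against 2.94, 4.01, 3.14 and 3.54 CPM in Hq-WT, and at 2.9, 2.57, 2.35 and 3.05 CPM in Aifm1-KI, against 3.42, 2.66, 3.66 and 4.05 CPM in Aifm1-WT. Groups overlap in both lines.

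Pgrmc1, a heme-binding membrane protein picked out after its values were seen, was at 221, 376, 187 and 283 CPM in Aifm1-KI, against 213, 199, 184 and 194 CPM in Aifm1-WT, with a log2 fold change of 0.45 (SE 0.18, adjusted p = 0.419 by edgeR). Its highest libraries are Aifm1-KI 2 and 4, the ones of that line with striatal markers. Hq-mut 3, with the highest striatal sum of the series at 856 CPM, was at 186 CPM for Pgrmc1. The part of striatal RNA in these levels was not tested.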
